A study of Homo sapiens with 2 samples.

Results

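MicroRNAs (miRNAs) are short RNAs cut from hairpin precursors, and bases 2 to 8 of the mature strand, the seed, pair with target messages and lower their output. Human miRNAs were numbered in order of report, and many names between miR-549 and miR-663 came from early cloning and tag surveys of human cells. Some of them have mouse orthologues, but many are known from primates alone and their functions are thinly described. Where they are well studied, it is mostly as regulators of tumour cell survival, of p53 and of responses to DNA damage.

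The set comprised every human probe whose name lies in the run miR-549 to miR-663, all letters and arms, without miR-654, miR-655 and miR-656. It held 131 of the 1273 human miRNA probes and covered 109 numbers. Of these probes, 2 named a pair of miRNAs each. The 232 probes with a number below 200, the earliest named human miRNAs, served as the comparison. The samples were H460 cells, a human non-small cell lung cancer line, given vehicle or sulforaphane, a plant isothiocyanate known as an activator of NRF2, the main regulator of antioxidant genes. The cells were grown in DMEM with serum, and RNA was taken after 48 hours. The sources used here give no dose. Each group was 1 array of 1 colour (Hy3 dye, miRCURY LNA capture probes), so no spread between cultures could be estimated and no test between groups was possible.

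Levels are the authors' normalized intensities, and a probe was called above the floor when its level passed that of 95% of the 143 viral probes of its array (their 95th percentile). The floor was 6.44 for vehicle and 5.52 for sulforaphane. Those normalized floors correspond to 718 and 684 background-subtracted units. The median foreground over all 2661 probes was 128.5 units with vehicle and 163.5 with sulforaphane, over a median local background of 41 and 61. None of the 131 probes was at the scanner limit. The share above the floor over all 1273 human miRNA probes was 14.3% with vehicle and 16.7% with sulforaphane. Of 7 epithelial miRNAs, markers of the labelled cell type, 0 were above the floor on either array. Their summed level was 11.3 with vehicle and 12.4 with sulforaphane. Of 17 miRNAs of blood, muscle, stroma, neurons and liver, 1 was above the floor with vehicle and 2 with sulforaphane. These lists are too short to tell their counts from the share of all human probes. The part of these markers in the results below was not tested.

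The following mature sequences are of the miRNAs that name the 12 probes above the floor on at least 1 array, shown for their seeds. The calls above the floor rest on the capture probes, whose sequences are not in the sources used here. The mature sequences are from RefSeq (GRCh38.p14), written 5′ to 3′, with the seed in capitals. Exact names matched 105 of the 131 probes. The first 6 sequences belong to the 5 probes above the floor on both arrays.
miR-625-3p: gACUAUAGaacuuucccccuca
miR-634: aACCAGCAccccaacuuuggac
miR-600: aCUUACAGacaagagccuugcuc
miR-574-5p: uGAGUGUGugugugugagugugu
miR-642a-5p: gUCCCUCUccaaaugugucuug
miR-642b-5p: gGUUCCCUcuccaaaugugucu
miR-559: uAAAGUAAauaugcaccaaaa
miR-589-5p: uGAGAACCacgucugcucugag
miR-630: aGUAUUCUguaccagggaaggu
miR-582-5p: uUACAGUUguucaaccaguuacu
miR-590-5p: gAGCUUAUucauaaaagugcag
miR-551b-3p: gCGACCCAuacuugguuucag
miR-550b-3p: uCUUACUCccucaggcacug

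The seeds of these 13 sequences were all different. The seed of miR-590-5p is that of the oncogenic miR-21-5p, that of miR-559 is shared with miR-548b-5p, miR-548w and miR-548y of the transposon-derived miR-548 family, and that of miR-551b-3p with miR-551a. By RefSeq positions, 8 of the 12 probes have a miRNA gene inside a protein-coding gene on the same strand. miR-625-3p (chr14:65471153-65471174, plus strand) lies in FUT8, the enzyme of core fucosylation, and miR-634 (chr17:66787132-66787153, plus strand) in PRKCA, a protein kinase C gene. miR-600 (chr9:123111561-123111583, minus strand) lies in STRBP. miR-574-5p (chr4:38868056-38868078, plus strand) lies in FAM114A1. miR-642a-5p (chr19:45674943-45674964, plus strand) lies in GIPR, an incretin receptor gene, with miR-642b-5p on the opposite strand at chr19:45674978-45674999. Among the probes above the floor on 1 array, miR-582-5p lies in PDE4D, miR-590-5p in EIF4H and miR-630 in ARIH1. miR-559 lies within EPCAM, an epithelial adhesion gene, and miR-589-5p within FBXL18, 2 genes whose strand the tables do not hold. Over the 105 probes with a position, 78 (74.3%) lay in a protein-coding gene on the same strand. They were 8 of the 12 (66.7%) above the floor on at least 1 array and 70 of the 93 (75.3%) below it on both.

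Most miR-549 to miR-663 probes gave as little signal as probes for viral miRNAs. On the vehicle array 7 of 131 (5.34%, 95% Wilson interval 2.61 to 10.6) were above the floor, and on the sulforaphane array 10 of 131 (7.63%, interval 4.2 to 13.5). By construction of the floor, 8 of the 143 viral probes (5.59%) were above it on each array. Of all human miRNA probes, 14.3% were above the floor with vehicle and 16.7% with sulforaphane. Among the miRNAs numbered below 200 the shares were 30.2% (70 of 232, interval 24.6 to 36.4) and 36.2% (84 of 232, interval 30.3 to 42.6). The intervals of the 2 sets of numbers do not overlap on either array. They cover counting error over probes alone, and no test was made between the sets.

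The median normalized intensity of the 131 probes was 0.668 with vehicle (quartiles 0.339 and 1.68) and 0.673 with sulforaphane (0.429 and 1.64). Viral probes had medians of 0.628 and 0.609. All 1273 human miRNA probes had medians of 0.762 and 0.798, so a median near that of the viral probes is shared by the human probes at large. The miRNAs numbered below 200 had medians of 1.67 and 1.93, with upper quartiles of 8.37 and 10.2. The 7 negative control probes had medians of 0.238 and 0.371, lower than all of these sets. A low signal bounds the amount of each miRNA only as far as its probe binds, and probes differ in affinity.

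**Figure D1:**
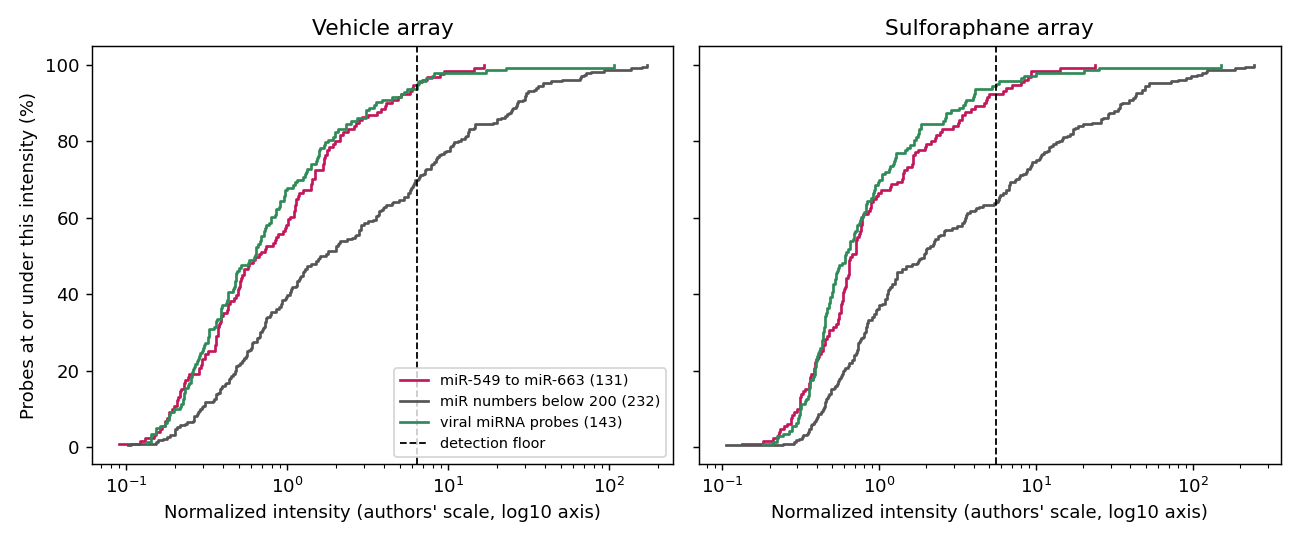
Cumulative share of probes (percent) at or under each normalized intensity (log10 axis) on the vehicle array (left) and the sulforaphane array (right), for 131 miR-549 to miR-663 probes, 232 probes with numbers below 200 and 143 viral probes, with the detection floor dashed. The curve of the miR-549 to miR-663 probes runs beside the viral curve up to the floor, where 5.34% (vehicle) and 7.63% (sulforaphane) of them remain to the right.

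On both arrays together, 5 of 131 probes (3.82%) were above the floor, against 13.2% of all human miRNA probes and 68 of 232 (29.3%) with numbers below 200. Of the viral probes that set the floor, 7 of 143 (4.9%) were above it on both arrays. The highest viral reading was 108 with vehicle and 151 with sulforaphane. Passing the floor therefore does not by itself show that a miRNA was present. The brightest of the 5 was miR-625-3p, which has been linked to oxaliplatin resistance in colorectal cancer, at 16.7 with vehicle and 23.6 with sulforaphane. In order of mean intensity, 36 of the 232 probes below 200 were brighter than it. The 3 brightest of those, miR-23b-3p (172 and 246), miR-29a-3p (160 and 214) and miR-22-3p (136 and 185), are abundant miRNAs of many tissues.

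Next came miR-634, a pro-apoptotic miRNA reported to repress mitochondrial and survival genes and NRF2, at 14.5 with vehicle and 14.2 with sulforaphane. miR-600 read 9.35 and 8.40. miR-574-5p, a GU-repeat miRNA that binds the RNA-binding protein CELF1 as a decoy, read 6.50 and 9.24. The joint probe for miR-642a-5p and miR-642b-5p read 7.40 and 7.03. Of these, miR-574-5p cleared the vehicle floor of 6.44 by the smallest margin, and only miR-625-3p and miR-634 were above 10 on either array.

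**Figure D2:**
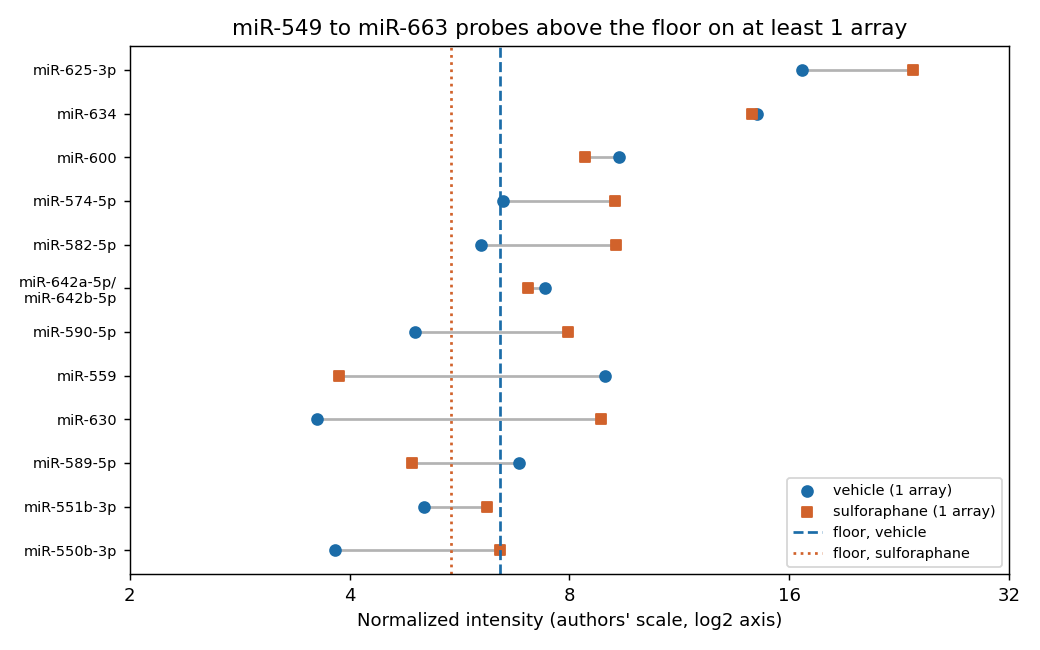
Normalized intensity (log2 axis) of the 12 miR-549 to miR-663 probes above the floor on at least 1 array, with a circle for vehicle, a square for sulforaphane and the floor of each array as a line (6.44 and 5.52). miR-625-3p and miR-634 stand clear of both floors, and the other 10 lie between 3.61 and 9.35.

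The direction of the ratio, sulforaphane over vehicle, was mixed among these 5. miR-625-3p (log2 ratio 0.50) and miR-574-5p (0.51) were higher with sulforaphane on the authors' scale, though not under spike-in scaling. miR-634 (-0.02), the miR-642 joint probe (-0.08) and miR-600 (-0.16) were nearer to 0 on that scale than 0.20, the SD between spike-in probes. That SD is a measure of technical spread and holds no variation between cultures. It is taken about the spike-in probes' own median log2 ratio of 0.68, not about 0. Under spike-in scaling miR-634 was at -0.73, the miR-642 joint probe at -0.78 and miR-600 at -0.86. None of the 5 reached 2-fold, a size that 3.57% of the 168 human miRNAs above the floor on both arrays passed upward and 1.19% downward.

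The median log2 ratio of the 5 probes was -0.02, against 0.44 for the 68 probes with numbers below 200 and 0.38 for all 168. Of the 5, 2 had a ratio above 0, against 82.7% of the 168. The difference between the medians of the 5 and of the 68 was -0.46. Within the range of mean intensity that the 5 span, 7.22 to 20.2, 31 probes with numbers below 200 passed both floors. Their median was 0.42, and 25 of the 31 had a ratio above 0. Over the same range the 81 human miRNAs outside the set that passed both floors had a median of 0.34. The 7 viral probes that passed both floors, at any intensity, had a median of 0.24 (lowest -0.33, highest 0.48). Their ratio was above 0 for 5 of the 7. A median of 5 probes rests on few values, and with the floor at the 90th percentile of the viral probes 16 probes qualified and their median was 0.22.

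Signs depended on the scale for most of these probes. Over 6 other scalings, the log2 ratio of miR-625-3p ranged from -0.20 to 0.66 and that of miR-574-5p from -0.20 to 0.66, and each was below 0 under scaling to the spike-in probes alone. The ratio of miR-634 ranged from -0.73 to 0.13 and that of the miR-642 joint probe from -0.78 to 0.08, both above 0 without scaling alone among the 6, and also above 0 on foreground intensities (0.15 and 0.13). miR-600 was below 0 under these 6, from -0.86 to -0.0028, but at 0.04 with foreground intensities without background subtraction. Its background-subtracted intensities were 1043 and 1041 units. The median of all detected human miRNAs itself moved from -0.32 under spike-in scaling to 0.54 without scaling.

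**Figure D3:**
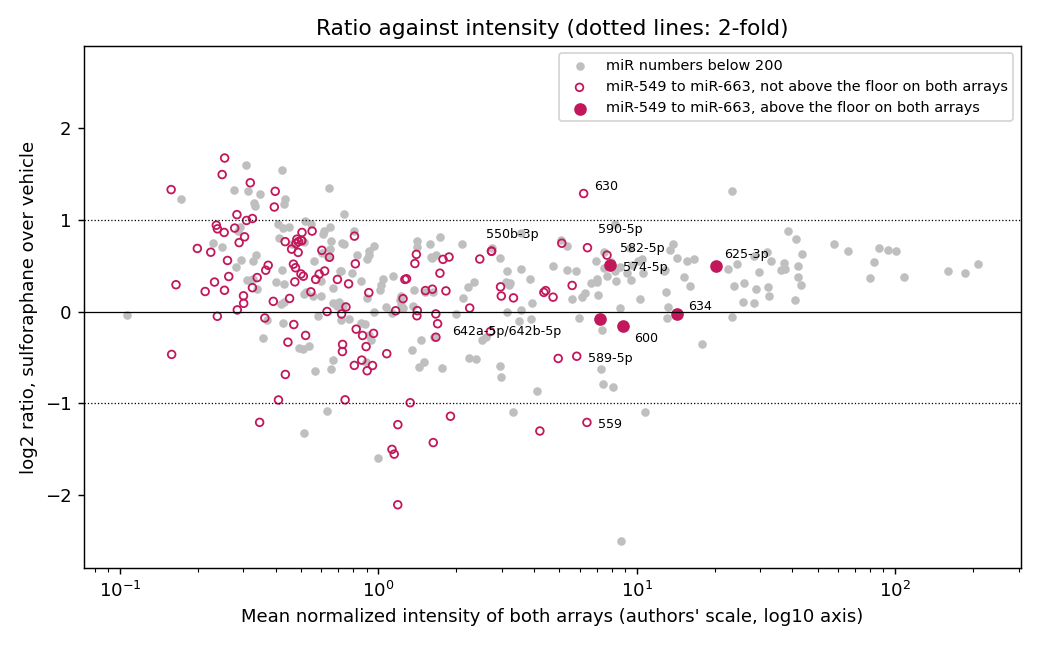
Log2 ratio of the sulforaphane array to the vehicle array, in normalized intensity, against the mean intensity of both arrays (log10 axis) for miR-549 to miR-663 probes (filled where above the floor on both arrays, open elsewhere) and for probes with numbers below 200 (grey), with 2-fold as dotted lines. The 5 filled points lie between -0.16 and 0.51, and the open points spread more widely at low intensity.

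The miRNAs above the floor on 1 array give a bound: the level on the brighter array over the other array's floor, on the normalized scale. Such a bound on a miRNA assumes that the reading above the floor is signal of that miRNA. The set passed the floor at 5.34% with vehicle and 7.63% with sulforaphane, against 5.59% of viral probes on each array. The bounds therefore describe readings. Of the 131 probes, 2 (1.53%) were above it with vehicle alone, against 1.1% of all human probes, and 5 (3.82%) with sulforaphane alone, against 3.46%. Both shares are near those of all human probes. Since a reading below the floor is not a measured level, the log2 ratios of the readings given beside these bounds are not measured folds.

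With vehicle alone, miR-559 read 8.95 against 3.87 with sulforaphane, at least 1.62-fold lower with sulforaphane (log2 ratio of the readings -1.21). Its seed sharers miR-548b-5p (0.561 and 0.556), miR-548w (0.318 and 0.589) and miR-548y (0.152 and 0.335) were below the floor on both arrays. miR-589-5p read 6.83 and 4.88, at least 1.24-fold lower (-0.49). Under the 4 scalings by a single factor per array, the bound of miR-559 ranged from 1.46 without scaling to 2.64 under spike-in scaling, and that of miR-589-5p from 1.11 to 2.02.

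With sulforaphane alone, miR-582-5p read 6.05 and 9.28, at least 1.44-fold higher (log2 ratio of the readings 0.62). miR-630, which is raised by cisplatin in lung carcinoma cells and modulates their response to DNA damage, read 3.61 and 8.83, at least 1.37-fold higher (1.29). miR-590-5p read 4.91 and 7.97, at least 1.24-fold higher (0.70). These 3 bounds fell below 1 under spike-in scaling, at 0.885, 0.843 and 0.760, so no difference can be bounded on that scale, and that of miR-590-5p was also below 1, at 0.942, when scaled to the other small RNAs.

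The remaining pair, miR-551b-3p (5.06 and 6.17) and miR-550b-3p (3.83 and 6.42), read less with sulforaphane than the vehicle floor of 6.44, so no fold can be bounded for them. miR-550b-3p is outside the naming rule and was chosen after its values were seen. With the vehicle floor used on both arrays, 8 instead of 10 probes were above it with sulforaphane, and these were the pair that dropped out.

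Some probes lay just under the floor and were chosen for mention after their values were seen. On the vehicle array these were miR-620 (668.5 background-subtracted units for a floor of 718, and 301.5 with sulforaphane) and miR-629-5p (5.83 normalized, and 4.09 with sulforaphane). On the sulforaphane array miR-584-5p (499.5 units with vehicle, 620 with sulforaphane) was just under the floor of 684.

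The seed sharing of miR-590-5p with miR-21-5p joins a dim probe and a bright one. The mature sequence of miR-21-5p is shown with the shared seed in capitals.
miR-21-5p: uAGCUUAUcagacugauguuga
The miR-21-5p probe read 93.5 with vehicle and 122 with sulforaphane (log2 ratio 0.38), against 4.91 and 7.97 for miR-590-5p. Brightness does not compare their abundance, since probes differ in affinity.

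Opposite arms were read for hairpins picked because 1 arm passed the floor. Below the floor on both arrays were 90.8% of the 131 probes and 82.2% of all human miRNA probes. A dim opposite arm is therefore common among probes at large and is not a result about these hairpins. The opposite arm was below the floor on both arrays for each probe above it that had one: miR-625-5p read 1.77 and 1.62, miR-574-3p 3.16 and 3.50, miR-582-3p 2.12 and 3.35, and miR-551b-5p 1.43 and 1.39. miR-589-3p read 0.354 and 0.613, and miR-590-3p 0.296 and 0.383. miR-642b-3p read 1.11 and 1.42.

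A disagreement between probes concerned miR-642a-5p. The probe named for miR-642a-5p alone read 0.372 with vehicle and 0.637 with sulforaphane, below the floor on both arrays, while the joint probe for miR-642a-5p and miR-642b-5p read 7.40 and 7.03. The 2 mature sequences printed above share a run of 19 bases, which starts at base 2 of miR-642a-5p and at base 4 of miR-642b-5p. The probe sequences are not in the sources used here, and which miRNA the joint probe reads cannot be told apart.

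A list of 10 numbers with mouse orthologues (miR-551b, miR-574, miR-582, miR-590, miR-592, miR-598, miR-599, miR-615, miR-652 and miR-653) had 16 probes in the set, so the set was not made of human-specific miRNAs throughout. The share of all human miRNA probes above the floor was 14.3% with vehicle and 16.7% with sulforaphane. Of the 16, 1 was above the floor with vehicle (6.25%) and 4 with sulforaphane (25%), against 6 of the other 115 (5.22%) on each array. Their median intensity was 1.80 with vehicle and 2.24 with sulforaphane, against 0.583 and 0.637 for the others. The 4 were miR-551b-3p, miR-574-5p, miR-582-5p and miR-590-5p. miR-652-3p, from a gene inside TMEM164, read 4.05 and 4.69, below both floors.

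The rest of the mouse list was dim. miR-615, which lies in the HOXC cluster, read 2.91 and 2.51 for its 3p arm and 0.390 and 0.718 for its 5p arm. miR-652-5p read 1.48 and 1.98, and miR-598 read 1.10 and 1.70. miR-592 read 0.430 and 0.573, miR-599 0.377 and 0.407, and miR-653 0.283 and 0.286. For 14 of the 16 probes the normalized level was higher with sulforaphane, and their median log2 ratio was 0.39, against 90 of all 131 probes and a median of 0.27, but of the 16 probes only that of miR-574-5p passed both floors, and the remaining ratios are not measured folds.

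The list of miRNAs linked to p53 and to stress held 6 probes, and 1 of them, miR-630, was above the floor, with sulforaphane alone. Of all human miRNA probes, 16.7% were above the floor with sulforaphane, so 1 of 6 is near that share. miR-605, a p53 target that represses MDM2, read 1.48 and 1.75. miR-612 read 1.16 and 1.17, and miR-661, which represses MDM2 and MDM4, 0.354 and 0.569. miR-638, from a gene inside DNM2, read 1.68 and 1.97, and miR-663a, a resveratrol-induced miRNA of monocytes, 0.283 and 0.319. The ratios of the 6 were above 0 with a median of 0.24, close to the 0.27 of all 131 probes, and a difference in the 5 dim ones was not detectable at these signals.

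GC content showed little relation to level within the set. The 105 probes with a sequence had a median GC content of 47.8% (quartiles 40.9 and 57.9), against 47.6% (40.9 and 52.4) for 199 probes with numbers below 200, and both had a median length of 22 bases. The 12 probes above the floor on at least 1 array had a median of 47.8%, as did the 93 below it on both. The set reached further at both ends, from 19.0% to 90.9% against 27.3% to 76.2%. Of its 12 probes at 65% or more, 0 were above the floor on either array and the brightest had a mean of 1.82. On at least 1 array, 9.16% of all 131 probes and 17.8% of all human miRNA probes were above it. A count of 0 among 12 probes cannot be told from those shares. Of the 4 probes with numbers below 200 at that GC content, 1 was above the floor, and the highest mean was 13.1. Across the 105 probes, which share arrays and labelling, the Spearman correlation of GC content with level was 0.07 with vehicle and 0.09 with sulforaphane, given as a description. miR-574-5p stands out by its letters: G and U make up 91.3% of it.

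**Figure D4:**
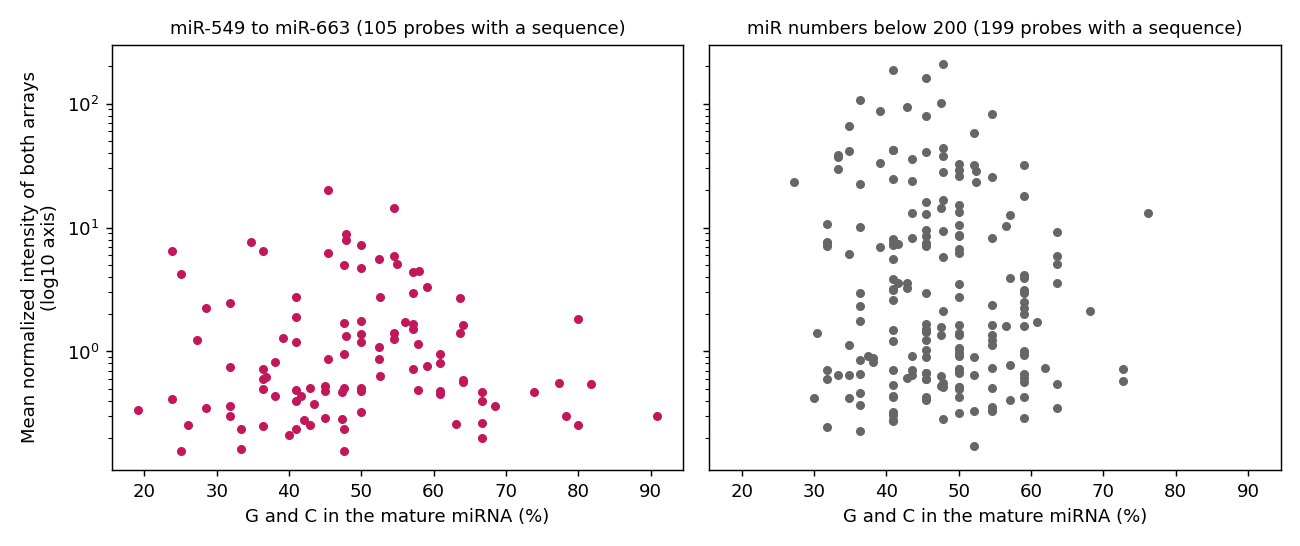
Mean normalized intensity of both arrays (log10 axis) against the GC content of the mature miRNA (percent) for 105 miR-549 to miR-663 probes (left) and 199 probes with numbers below 200 (right), 1 point per probe. On the left, miR-625-3p and miR-634 are the only points above 10. None of the 12 probes at 65% GC or more on the left has a mean above 1.82, a bin too small to set apart from the rest.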

How the data were processed

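The intensity values, foreground and foreground minus background, were deposited by the authors for each probe and array, per the file headers. The normalized values deposited by the authors are a ratio: the background-subtracted intensity divided by 111.5 on the vehicle array and by 124 on the sulforaphane array, the same factor for all 2661 probes. No source used here names the scanner, the software or the choice of factors. The series value table held the same values to within 4.9e-08.

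From these, the floor (95th percentile of viral probes), shares with Wilson intervals, and log2 ratios with no value added were computed (Python 3.11.15, numpy 2.4.6, pandas 2.3.3, scipy 1.17.1). Cyclic loess used limma 3.58.1 in R 4.3.3. The calculations were tested on simulated data. The number of arrays limits the precision. Named miRNAs were all those above the floor on both arrays, the 10 brightest, the largest 3 bounds in each direction, their other arms, the mouse and p53 lists and the 3 brightest numbered below 200. The set and the lists were chosen with earlier results of these data known. Host genes and sequences came from RefSeq GRCh38.p14.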

Additional observations from a re-analysis of the deposited data

How the results depend on the processing

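No paired analysis was possible because each group held 1 array. Moving the floor changed the shares most. At the 90th percentile of the viral probes, 13% of miR-549 to miR-663 probes were above it with vehicle and 12.2% on both arrays, against 40.5% and 37.9% of those numbered below 200. At the 99th percentile the shares with vehicle, with sulforaphane and on both were 0%, 0.763% and 0% against 14.2%, 15.1% and 13.8%. At the highest viral probe all 3 were 0% against 1.29% each. At the median of all probes they were 47.3%, 38.9% and 36.6% against 65.9%, 69.4% and 62.9%. The set numbered below 200 had the higher share under each of these floors. The median log2 ratio of the 5 probes was -0.73 under spike-in scaling, -0.42 under small RNA scaling, -0.24 under quantile and -0.34 under cyclic loess normalization, and it was above 0 without scaling (0.13) and with foreground without subtraction (0.15), so its sign is not settled. With the floor at the 90th percentile it was 0.22 over 16 probes, and the difference from numbers below 200 was -0.21. Of these 16 probes, 1 was at least 2-fold higher (miR-630) and 1 at least 2-fold lower (miR-559). The share of all human miRNAs past 2-fold was not computed at that lower floor. Whether 1 of 16 in each direction is ordinary therefore cannot be told. At the floor of the main results the shares were 3.57% upward and 1.19% downward of 168 human miRNAs. At the 99th percentile no probe was left for a median. The other alternatives for these results, including foreground without subtraction and the vehicle floor on both arrays (chosen after seeing the data), left shares inside their intervals, medians within the spike-in SD of 0.20 and counts the same. Of 96 log2 ratios recomputed for the probes above the floor on at least 1 array, 48 moved by more than that SD. Scaling by a single factor per array shifts each probe alike, so these are not 96 separate outcomes.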

Other observations

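Readings below the floor are grouped here by their vehicle level. That level is the denominator of the ratio, so a low vehicle reading gives a high ratio by construction in dim probes, and the values are a description. Of the 119 probes below the floor on both arrays, 54 read under 0.5 with vehicle, and their median log2 ratio was 0.65, against 0.62 for 66 viral probes in that range. The 43 probes that read 1 or more with vehicle had a median of 0.01, against -0.17 for 38 viral probes. Of the 119, 8 had a log2 ratio of 1 or more, all in the lower range, and 8 had a ratio of -1 or less, 7 of them in the upper one. Viral probes split alike: of 134 below both floors, 13 were at 1 or more (12 in the lower range) and 10 at -1 or less (9 in the upper). Of all 1047 human miRNA probes below both floors, 123 were at 1 or more and 50 at -1 or less. The 7 negative controls had a median ratio of 0.80.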
